A study of Mus musculus with 6 samples.

Results

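The transcripts of 10 core pluripotency transcription factors were followed through RNA immunoprecipitation (IP) of a tagged germ cell protein. The factors were Pou5f1, Nanog, Sox2, Sall4, Klf2, Klf4, Klf5, Esrrb, Zfp42 and Nr5a2. Their members on the array were chosen by name, as every non-control probe annotated to 1 of these genes, which gave 15 of the 41174 probes on the array. Sall4, Klf2, Klf5, Esrrb and Zfp42 had 2 probes each and the other 5 genes had 1. All samples came from mouse V6.5 embryonic stem cells of mixed C57BL/6 and 129SV strain that carried Dazl fused to GFP and a V5 tag, grown without feeder cells in differentiation medium for 12 days and labelled by the submitters as in vitro primordial germ cells. After ultraviolet crosslinking, RNA was recovered with an anti-GFP antibody (GFP IP, 2 arrays), with an antibody to the poly(A)-binding protein PABP1 (PABP1 IP, 2 arrays), or taken as total input RNA with no antibody (2 arrays). The tagged protein was thus present in all 3 groups. What drives the transgene and whether the cells were sorted are not given in the sources used here, and an IP from cells without the tag was not analysed here.

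Pou5f1 (OCT4), Nanog and Sox2 form the centre of the circuit that keeps embryonic stem cells undifferentiated, and they bind and activate one another's genes. Klf2, Klf4 and Klf5, the orphan nuclear receptors Esrrb and Nr5a2, and the zinc-finger proteins Sall4 and Zfp42 (REX1) support this state in mouse cells. Primordial germ cells keep part of the circuit active, Pou5f1 and Nanog among it. DAZL is a germ cell protein that binds U-rich sites in the 3′ untranslated regions of mRNAs, and PABP1 binds the poly(A) tail of mRNAs in general. GFP IP against input therefore asks which transcripts came down with tagged DAZL, and GFP IP against PABP1 IP asks which did so relative to mRNA recovered through the tail.

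Each array read 43379 non-control spots, with 0 of them saturated and 41.5% to 52.6% well above background. The signal's 75th percentile was 158 and 163 on the GFP IP arrays, 105 and 146 on the PABP1 IP arrays, and 63.6 and 75.4 on the input arrays. Signals below are given as multiples of that percentile on the same array (scaled signal), and differences are on the log2 scale. Replicates correlated at 0.980 (GFP IP), 0.981 (PABP1 IP) and 0.991 (input) across the 21061 probes kept, and arrays of different groups at 0.861 to 0.923. Slide 2 held replicate 1 of the GFP IP and replicate 2 of the PABP1 IP, and slide 1 held the other 4 arrays. The labels do not say that replicates came from separate cultures, so the p-values cover no more than the spread between arrays, and the number of arrays limits the precision. The median difference over all kept probes was -0.38 in GFP IP against input, 0.13 in PABP1 IP against input and -0.46 in GFP IP against PABP1 IP. With the arrays set instead on the 320 spots of added control RNA (spike-in scaling), these medians became 0.47, 2.61 and -2.09, and where that turned the direction of a member's call its value is given beside it. The median signal of those spots was 6029 and 3407 in the GFP IP, 1109 and 1143 in the PABP1 IP, and 3276 and 3785 in input. The GFP IP replicates were thus further apart on the spike-in scale than on the 75th percentile.

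In GFP IP against input, 6 of the 14 member probes tested were higher, 2 were lower and 6 did not pass an adjusted p of 0.05, beside 53.2% of all kept probes that passed (20.7% higher and 32.4% lower). The transcripts that rose were those of Nanog, Sox2, Sall4 (1 of 2 probes), Klf5 and Zfp42, while a Klf2 probe and Nr5a2 were lower. In PABP1 IP against input, 3 member probes were higher, 6 were lower and 5 did not pass, beside 54.7% of all kept probes (30.8% higher and 23.9% lower). Between GFP IP and PABP1 IP, 8 were higher in the GFP IP, 1 was lower and 5 did not pass, beside 62.8% of all kept probes (24.4% higher and 38.4% lower). The median over the 14 probes was 0.19, -0.17 and 0.87 in these 3 comparisons. The share of member probes past the threshold was 57.1%, 64.3% and 64.3%, close to that of all probes, so the description turns on which factors went which way. Without Input replicate 2, 5 member probes passed in GFP IP against input, and in PABP1 IP against input 3 passed without Input replicate 1 and 4 without Input replicate 2. With slide as a block, 6 member probes were higher and 5 lower in GFP IP against input. In that setting 3 were higher and 7 lower in PABP1 IP against input, and 9 higher and 1 lower in GFP IP against PABP1 IP. The comparisons share arrays in pairs and are not independent of each other.

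**Figure D1:**
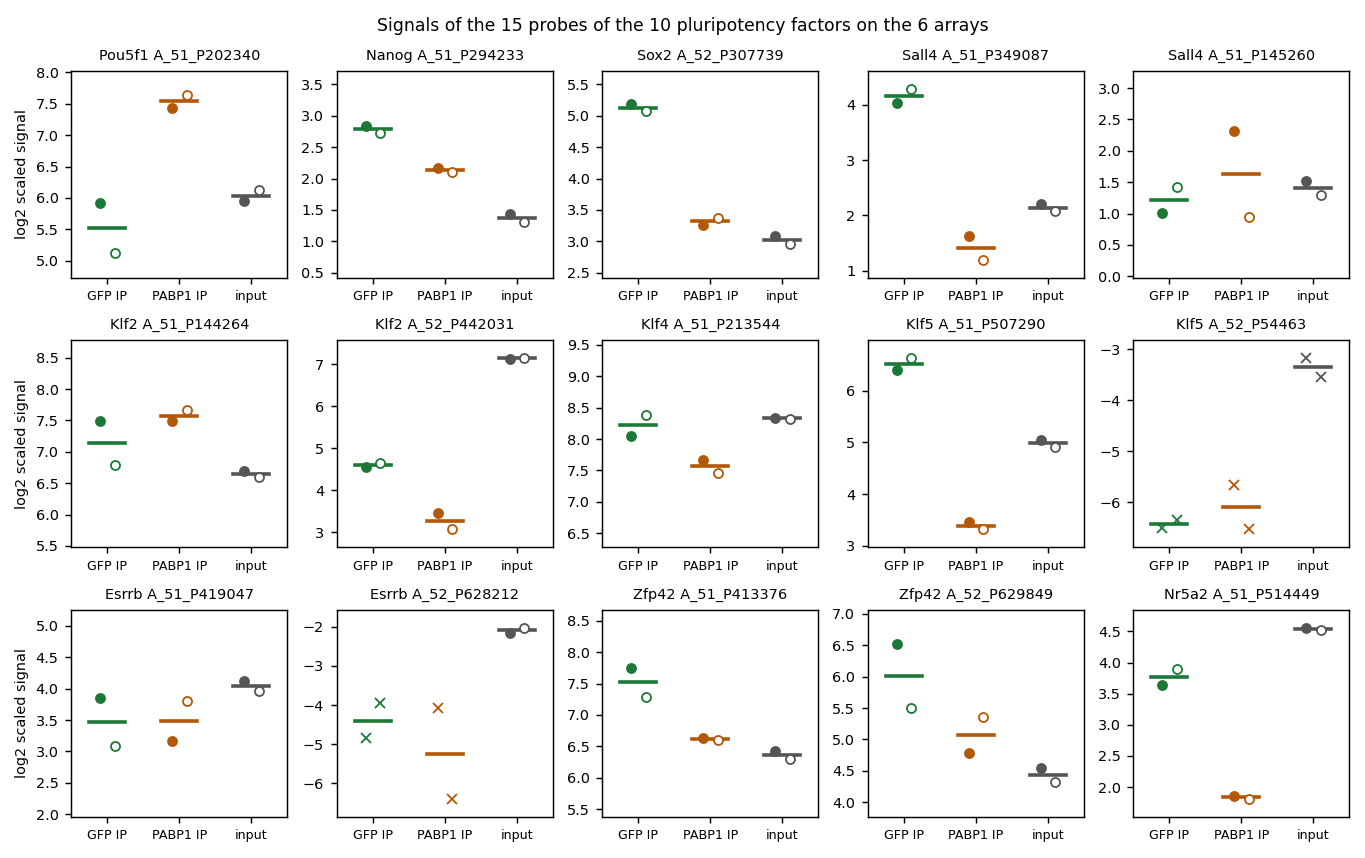
Log2 scaled signal (vertical axis, each panel with its own range) of the 15 member probes in GFP IP, PABP1 IP and input, with filled points for replicate 1, open points for replicate 2, crosses for spots not well above background and bars for the group mean. Sox2, Nanog and Zfp42 are highest in the GFP IP, Pou5f1 is highest in the PABP1 IP, and Nr5a2 and Klf2 probe A_52_P442031 are highest in input.

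The 3 factors at the centre of the circuit had 3 different profiles. Pou5f1, the POU-domain factor whose level sets stem cell identity, had scaled signals of 60.2 and 34.8 in the GFP IP, 173 and 199 in the PABP1 IP, and 61.8 and 69.6 in input. Both PABP1 IP arrays lay above all others, and both GFP IP arrays lay below the input arrays, replicate 1 just below and replicate 2 further. Pou5f1 was 2.83-fold higher in PABP1 IP than in input (log2 difference 1.503, SE 0.30, adjusted p = 0.00949) and 4.06-fold lower in GFP IP than in PABP1 IP (-2.02, SE 0.30, adjusted p = 0.00285). The first of these did not pass without Input replicate 1 (1.42, adjusted p = 0.0557) or with quantile normalization (0.79, adjusted p = 0.0785), nor did the second with cyclic loess (-0.84, adjusted p = 0.0602). In GFP IP against input the difference of -0.52 did not pass (95% confidence interval -1.27 to 0.23, adjusted p = 0.188). It passed as lower with slide as a block (-0.77, adjusted p = 0.0359), on slide 1 alone (-0.92, adjusted p = 0.0279) and when GFP IP replicate 1 was left out (-0.92, adjusted p = 0.0416), and it was above 0 with normexp background correction, with the median of all probes as the scale, with cyclic loess and with spike-in scaling (0.074 to 0.33). All 3 groups came from the same tagged cell type on the same day and differed in how RNA was recovered. These values therefore compare recovery of the transcript and do not measure a change in its expression. The array also reads RNA pooled over the whole culture, so how many cells held a transcript and how much each held cannot be told apart.

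Nanog, a homeodomain factor, stood in the order GFP IP, PABP1 IP, input with no overlap between groups. Its scaled signals were 7.15 and 6.63 in the GFP IP, 4.50 and 4.29 in the PABP1 IP, and 2.70 and 2.47 in input. It was higher in GFP IP than in input by a log2 difference of 1.41 (SE 0.16, adjusted p = 0.00263) and in PABP1 IP than in input by 0.77 (SE 0.16, adjusted p = 0.0116). The difference between GFP IP and PABP1 IP was smaller, at 0.65 (SE 0.16, adjusted p = 0.0175; -0.99 with spike-in scaling). It did not pass on slide 1 alone (0.56, adjusted p = 0.0947) and was 0.74 between the 2 arrays of slide 2, a value with no test. It also missed the threshold when GFP IP replicate 1 (adjusted p = 0.0767) or PABP1 IP replicate 1 or 2 (0.0502 and 0.0597) was left out, as did PABP1 IP against input without Input replicate 1 or 2 (0.0562 and 0.0852).

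Sox2, the HMG-box partner of OCT4, was high in the GFP IP, with the other groups closer to each other. Its scaled signals were 36.3 and 33.6 in the GFP IP, 9.62 and 10.3 in the PABP1 IP, and 8.48 and 7.76 in input. The GFP IP was 4.31-fold above input (2.11, SE 0.16, adjusted p = 0.00156) and 3.50-fold above the PABP1 IP (1.81, SE 0.16, adjusted p = 0.000715; 0.17 with spike-in scaling, adjusted p = 0.8). PABP1 IP against input did not pass (0.30, 95% confidence interval -0.11 to 0.71, adjusted p = 0.174), and it passed as higher with normexp background correction (0.63, adjusted p = 0.0165) and spike-in scaling (2.78, adjusted p = 5.46e-06). Of the triad, Pou5f1 was on the percentile scale the factor with its highest signal in the PABP1 IP, and Nanog and Sox2 had theirs in the GFP IP.

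Sall4, a zinc-finger factor of stem cells and germ cells, gave a different answer with each probe. Probe A_51_P349087, annotated to a cDNA clone, had scaled signals of 16.4 and 19.6 in the GFP IP, 3.08 and 2.29 in the PABP1 IP, and 4.61 and 4.22 in input. All 3 groups were separate, with the PABP1 IP lowest. By this probe Sall4 was higher in GFP IP than in input by 2.02 (SE 0.22, adjusted p = 0.00239) and than in PABP1 IP by 2.75 (SE 0.22, adjusted p = 0.000591; 1.12 with spike-in scaling, adjusted p = 0.0783), and lower in PABP1 IP than in input by 0.73 (-0.73, adjusted p = 0.0356; 1.75 with spike-in scaling). This fall did not pass on slide 1 alone (adjusted p = 0.0851), nor without PABP1 IP replicate 2 (0.129), Input replicate 1 (0.158) or Input replicate 2 (0.113). Probe A_51_P145260, annotated to a RefSeq transcript, had 2.01 and 2.69 in the GFP IP, 4.96 and 1.92 in the PABP1 IP, and 2.86 and 2.45 in input. These groups overlapped, the PABP1 IP replicates lay furthest apart, and no comparison passed (-0.19, 0.22 and -0.41, with adjusted p of 0.749, 0.718 and 0.468). GFP IP against PABP1 IP passed as lower without PABP1 IP replicate 2 (-1.09, adjusted p = 0.0287), on slide 1 alone (-0.88, adjusted p = 0.0396) and under spike-in scaling (-2.05, adjusted p = 0.00103). PABP1 IP against input passed as higher on slide 1 alone and under spike-in scaling (adjusted p of 0.029 and 9.75e-06).

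The Krüppel-like factors Klf2, Klf4 and Klf5 are zinc-finger proteins whose roles in stem cell renewal partly overlap. Klf5 probe A_51_P507290 had scaled signals of 84.8 and 98.8 in the GFP IP, 10.9 and 10 in the PABP1 IP, and 32.9 and 30.2 in input. The groups did not overlap, and the PABP1 IP was the lowest. Klf5 was 2.90-fold higher in GFP IP than in input (1.54, SE 0.17, adjusted p = 0.00258), lower in PABP1 IP than in input (-1.59, SE 0.17, adjusted p = 0.00163; 0.89 with spike-in scaling) and 8.75-fold higher in GFP IP than in PABP1 IP (3.13, SE 0.17, adjusted p = 0.00053). This last difference was the largest rise among the 14 member probes in that comparison. The other Klf5 probe, A_52_P54463, was not well above background on any array, at scaled signals of 0.011 to 0.111, and was not tested.

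Klf4 was bright, and its groups lay close together. Its scaled signals were 265 and 334 in the GFP IP, 204 and 177 in the PABP1 IP, and 324 and 320 in input. The GFP IP arrays lay on either side of the input arrays, and both PABP1 IP arrays lay below them. Klf4 was lower in PABP1 IP than in input (-0.76, SE 0.19, adjusted p = 0.0216; 1.72 with spike-in scaling) and higher in GFP IP than in PABP1 IP (0.65, SE 0.19, adjusted p = 0.0318; -0.99 with spike-in scaling). The first did not pass without PABP1 IP replicate 2 (adjusted p = 0.0854), Input replicate 1 (0.104) or Input replicate 2 (0.1), and the second passed only without GFP IP replicate 1 among the left-out arrays, with adjusted p of up to 0.128 without GFP IP replicate 2. The difference between GFP IP and input was -0.11 (95% confidence interval -0.60 to 0.37, adjusted p = 0.637), and it passed as higher with normexp background correction (0.53, adjusted p = 0.0324), quantile normalization (0.60, adjusted p = 0.0289) and cyclic loess (0.74, adjusted p = 0.032).

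The 2 Klf2 probes went apart. Probe A_51_P144264 had scaled signals of 179 and 110 in the GFP IP, 179 and 202 in the PABP1 IP, and 104 and 96.9 in input. The replicates of the GFP IP spanned most of the range between the other groups. By this probe Klf2 was higher in PABP1 IP than in input (0.92, SE 0.27, adjusted p = 0.0335), while GFP IP against input (0.49, adjusted p = 0.174) and GFP IP against PABP1 IP (-0.44, adjusted p = 0.203) did not pass. The rise did not pass without either PABP1 IP or either input array (adjusted p of 0.0762 to 0.138). GFP IP against input passed as higher without GFP IP replicate 2 (0.84, adjusted p = 0.0395), with normexp background correction (1.13, adjusted p = 0.00487), with quantile normalization (1.11, adjusted p = 0.0201) and with cyclic loess (1.25, adjusted p = 0.0159). GFP IP against PABP1 IP passed as lower without GFP IP replicate 1 (-0.78, adjusted p = 0.0401) and under spike-in scaling (-2.07, adjusted p = 0.000892). Probe A_52_P442031 had 23.67 and 24.97 in the GFP IP, 11.1 and 8.43 in the PABP1 IP, and 140 and 142 in input. By that probe Klf2 was 5.81-fold lower in GFP IP than in input (-2.54, SE 0.19, adjusted p = 0.00155), 14.6-fold lower in PABP1 IP than in input (-3.87, SE 0.19, adjusted p = 0.000855) and higher in GFP IP than in PABP1 IP (1.33, SE 0.19, adjusted p = 0.00275; -0.30 with spike-in scaling). The array annotates both probes to the same RefSeq transcript.

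Of the 2 orphan nuclear receptors, Nr5a2 (LRH-1), which can stand in for OCT4 in reprogramming of mouse cells, had its highest signal in input. Its scaled signals were 12.5 and 14.9 in the GFP IP, 3.64 and 3.51 in the PABP1 IP, and 23.6 and 23.1 in input, with no overlap between groups. It was lower in PABP1 IP than in input by a log2 difference of -2.71 (SE 0.17, adjusted p = 0.000855; -0.22 with spike-in scaling, adjusted p = 0.719) and higher in GFP IP than in PABP1 IP by 1.93 (SE 0.17, adjusted p = 0.000677; 0.30 with spike-in scaling, adjusted p = 0.662). The fall of -0.77 in GFP IP against input (SE 0.17, adjusted p = 0.0146) did not pass with the median of all probes as the scale (-0.18, adjusted p = 0.556), with spike-in scaling (0.074), nor without GFP IP replicate 1 (adjusted p = 0.0691), Input replicate 1 (0.0897) or Input replicate 2 (0.0767). Over all kept probes the median in that comparison was -0.38.

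Esrrb, which shares targets with OCT4 and Nanog, was read by probe A_51_P419047 at 14.4 and 8.53 in the GFP IP, 8.97 and 13.9 in the PABP1 IP, and 17.4 and 15.7 in input. The IP arrays overlapped each other and all lay below the input arrays. No comparison passed (-0.58, -0.57 and -0.01, with adjusted p of 0.201, 0.215 and 0.981). With slide as a block both IPs passed as lower than input (-0.92, adjusted p = 0.00848 for GFP IP and -0.91, adjusted p = 0.00748 for PABP1 IP), as they did on slide 1 alone (adjusted p of 0.0248 and 0.0267). With spike-in scaling PABP1 IP passed instead as higher than input (1.92, adjusted p = 0.00162), and GFP IP as lower than PABP1 IP (-1.65, adjusted p = 0.00862). The GFP IP array of slide 2 and the PABP1 IP array of slide 2 were each the higher of their pair. The dim probe A_52_P628212 was well above background in input alone, at 0.225 and 0.245. For a dim group the fold is a bound, taken against its own signal or, where higher, against the dimmest signal called well above background on that array. It was at least 3.801-fold lower in PABP1 IP than in input (adjusted p = 0.0197), and at least 4.29-fold lower in GFP IP than in input, which did not pass (adjusted p = 0.0529). The first did not pass without Input replicate 1 or 2 (adjusted p of 0.0725 and 0.081), and the second passed without PABP1 IP replicate 1 or 2 (adjusted p = 0.00899 each), with quantile normalization (0.0328), with no filter on dim probes (0.0494), with slide as a block (0.0287) and on slide 1 alone (0.0115). It also passed with normexp background correction (0.00405), where the fitted difference was -0.92 in place of -2.31. Between the IPs both groups were below background and no fold is given.

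Zfp42 (REX1), a widely used marker of undifferentiated stem cells, was higher in GFP IP than in input by both probes. Probe A_51_P413376 had scaled signals of 216 and 156 in the GFP IP, 99.05 and 97.26 in the PABP1 IP, and 86.0 and 78.8 in input. It was higher in GFP IP than in input (1.16, SE 0.21, adjusted p = 0.00835) and than in PABP1 IP (0.90, SE 0.21, adjusted p = 0.014; 0.0643 on slide 1 alone; -0.73 as the difference with spike-in scaling), and PABP1 IP against input did not pass (0.25, adjusted p = 0.354). Probe A_52_P629849 had 91.8 and 45.3 in the GFP IP, 27.4 and 41.0 in the PABP1 IP, and 23.3 and 19.9 in input. Its rise in GFP IP against input (1.58, SE 0.40, adjusted p = 0.0221) passed, and the GFP IP against PABP1 IP (0.94, adjusted p = 0.0863) and PABP1 IP against input (0.64, adjusted p = 0.224) did not. The rise of A_51_P413376 over input did not pass without Input replicate 2 (adjusted p = 0.0551), and its rise over PABP1 IP did not without GFP IP replicate 1 (0.0538) or PABP1 IP replicate 1 (0.0507). The rise of A_52_P629849 over input did not pass without GFP IP replicate 1 (0.063), Input replicate 1 (0.0775) or Input replicate 2 (0.0966), and GFP IP against PABP1 IP passed for it without GFP IP replicate 2 (1.45, adjusted p = 0.0213), with normexp background correction, quantile normalization or cyclic loess (1.07 to 1.94, adjusted p of 0.0105 to 0.0155) and with slide as a block (adjusted p = 0.00771). Both Zfp42 probes passed as higher in PABP1 IP against input with normexp background correction (0.70 and 1.06, adjusted p of 0.0134 and 0.0181) and spike-in scaling (2.74 and 3.12, adjusted p of 7.67e-06 and 3.49e-07). The wider error of the second probe came with a spread between GFP IP replicates larger than that of the first.

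**Figure D2:**
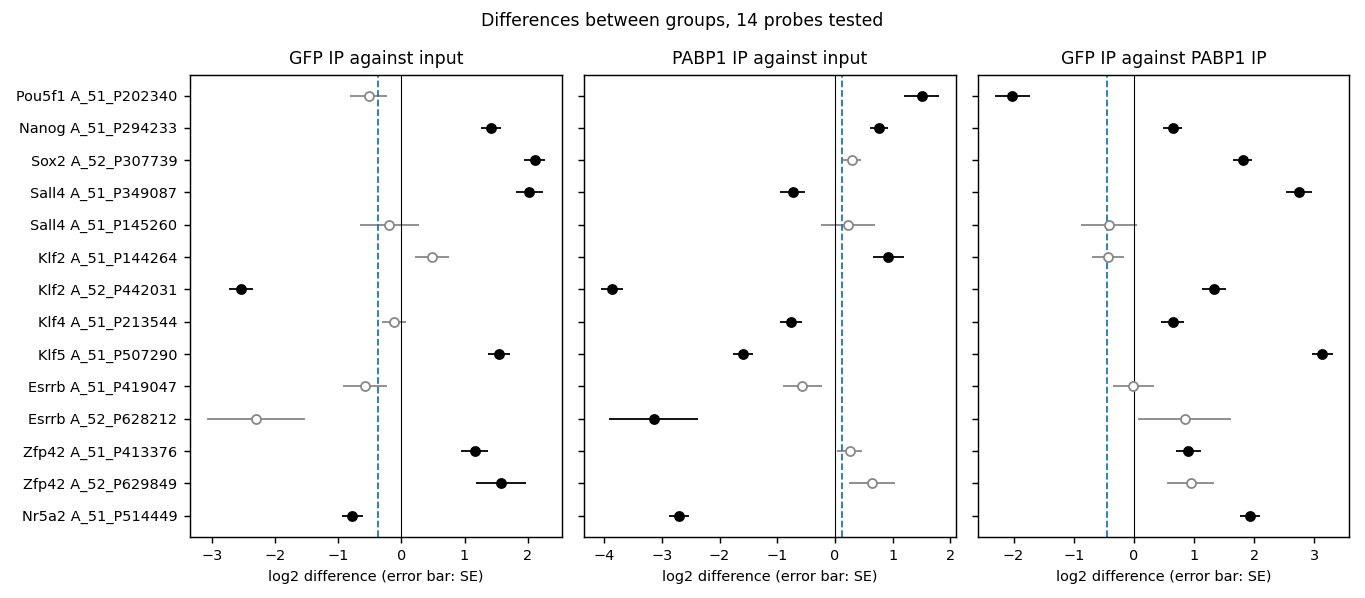
Log2 difference (horizontal axis) of the 14 tested member probes in the 3 comparisons, with error bars of 1 SE, black points for an adjusted p under 0.05 and open grey points for the rest; the dashed line marks the median of all kept probes. Sox2, Sall4 probe A_51_P349087 and Klf5 lie to the right in both panels that hold the GFP IP, and Pou5f1 lies furthest left in GFP IP against PABP1 IP; the point of Esrrb probe A_52_P628212 is the fitted value of a probe not well above background in either IP.

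Where a gene had 2 kept probes, their ratio within an array was compared between groups, which no scaling by a constant can move. Of the 12 tests over Sall4, Klf2, Zfp42 and Esrrb, 5 passed, beside 28.7% of 7727 such probe pairs in GFP IP against input, 36.4% in PABP1 IP against input and 28.8% in GFP IP against PABP1 IP. For Klf2 the log2 ratio of A_51_P144264 over A_52_P442031 was 2.92 and 2.15 in the GFP IP, 4.02 and 4.58 in the PABP1 IP, and -0.43 and -0.55 in input. The ratio was higher by 3.02 (SE 0.35, adjusted p = 0.00643) in GFP IP than in input and by 4.79 (SE 0.35, adjusted p = 0.00184) in PABP1 IP than in input. It was lower by 1.77 in GFP IP than in PABP1 IP (-1.77, SE 0.35, adjusted p = 0.0183), a call that did not hold with quantile normalization (-1.001, adjusted p = 0.107), without GFP IP replicate 2 (-1.38, adjusted p = 0.067) or without PABP1 IP replicate 2 (-1.49, adjusted p = 0.0639).

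For Sall4 the log2 ratio of A_51_P145260 over A_51_P349087 was -3.03 and -2.86 in the GFP IP, 0.69 and -0.25 in the PABP1 IP, and -0.69 and -0.78 in input. It was lower in GFP IP than in input (-2.21, SE 0.35, adjusted p = 0.0124) and than in PABP1 IP (-3.16, SE 0.35, adjusted p = 0.00341). The first of these did not pass without GFP IP replicate 1 (adjusted p = 0.0662), without Input replicate 1 (0.0731) or without Input replicate 2 (0.0674), with values of -2.13, -2.16 and -2.26. PABP1 IP and input did not pass (0.95, adjusted p = 0.0892), and they did with slide as a block (1.23, adjusted p = 0.028) and when PABP1 IP replicate 2 was left out (1.42, adjusted p = 0.0295). Neither the Zfp42 pair (-0.42, -0.39 and -0.04) nor the Esrrb pair (1.73, 2.58 and -0.85) passed in any comparison. An Esrrb ratio in an IP rests on a probe not well above background there, and without PABP1 IP replicate 1 it passed in PABP1 IP against input (4.05, adjusted p = 0.0224). Where on the transcripts these probes lie is not given in the sources used here.

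**Figure D3:**
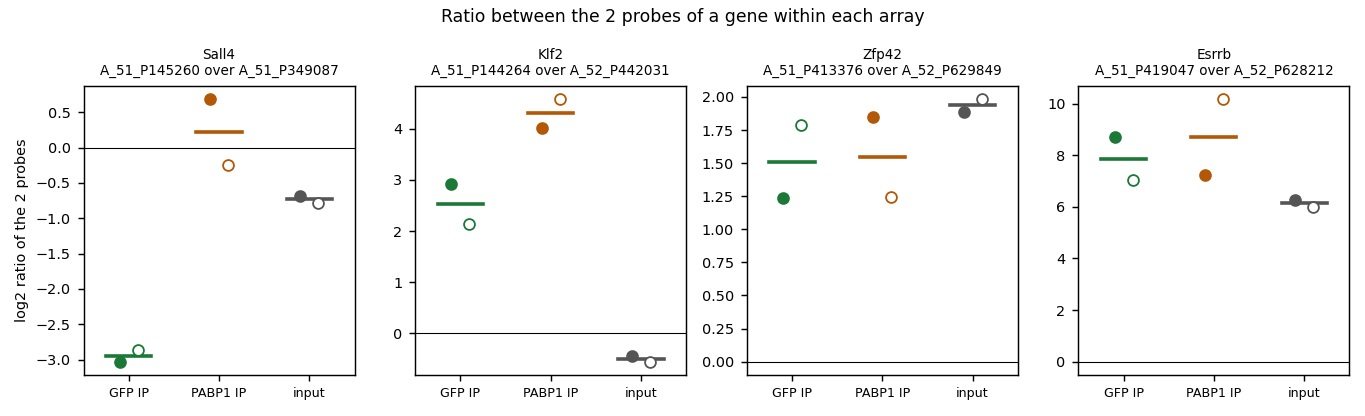
Log2 ratio of the 2 probes of a gene within each array (vertical axis, each panel with its own range) in GFP IP, PABP1 IP and input, with filled points for replicate 1, open points for replicate 2 and bars for the group mean. The Klf2 ratio is near -0.5 in input and above 2 in all 4 IP arrays, and the Sall4 ratio is near -3 in the GFP IP alone.

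The kept probes of other named genes with the most similar profile were found by the smallest Euclidean distance over the 6 arrays, after each probe's own mean log2 signal was subtracted. For Pou5f1 they were Prdx6 (distance 0.28), Tmem11 (0.29) and Gpa33 (0.29). For Nanog they were Ube2k (0.14), Slc25a30 (0.16) and Zmynd19 (0.18). For Sox2 they were Cct8 (0.11), Brd7 (0.12) and Yy1 (0.12). Cct8, a subunit of the cytosolic chaperonin, had scaled signals of 92.4 and 85.3 in the GFP IP, 26.2 and 25.5 in the PABP1 IP, and 21.4 and 20.2 in input.

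Around the 10 factors, a list of 46 further genes of the pluripotency network (other transcription factors, chromatin regulators and elongation factors) had 44 genes and 86 probes on the array, of which 76 probes of 44 genes were kept. For GFP IP against input, 20 of these probes were higher, 15 were lower and 41 did not pass (46.1% passed, beside 53.2% of all kept probes). In PABP1 IP against input 9 were higher, 40 were lower and 27 did not pass (64.5%, beside 54.7%), and in GFP IP against PABP1 IP 45 were higher, 6 were lower and 25 did not pass (67.1%, beside 62.8%). The medians over the 76 probes were -0.06, -0.74 and 0.82, beside -0.38, 0.13 and -0.46 over all kept probes. With spike-in scaling the counts were 22 higher and 0 lower, 51 higher and 3 lower, and 5 higher and 22 lower.

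Among network genes, the rises in GFP IP against input included Etv5, an ETS-family factor (2.71, SE 0.22, adjusted p = 0.0016), whose other probe was at 0.87. Thap11 (Ronin) was higher by 1.99 and Foxo1, a forkhead factor, by 1.80 (other probe 1.50). A Smad1 probe that was not well above background in input was at least 2.99-fold higher (other probe 1.32). The falls were led by Smarca4, the ATPase BRG1 of the BAF chromatin remodelling complex (-2.11, SE 0.28, adjusted p = 0.0035), with other probes at -0.80 and -0.62. Cnot3, a subunit of the CCR4-NOT deadenylase complex, was at -1.95 (other probes -1.14 and -1.85). Rtf1 was at -1.88 (other probes -1.66, -0.63 and -1.05), Ctr9 at -1.83 and Paf1 at -1.79 (other probe 0.08), all 3 members of the PAF1 elongation complex.

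In PABP1 IP against input the largest falls were those of Rif1, a regulator of replication timing (-6.16, SE 0.41, adjusted p = 0.000874; other probe -1.25), and Pou2f1 (OCT1; -4.13, other probe -1.95). Smarca4 (-3.88, other probes -1.77 and -2.14), Rtf1 (-3.32, other probes -2.83, -0.72 and 0.34) and Hcfc1 (-3.27, other probes -1.27 and 0.17) followed. The Rif1 and Hcfc1 probes with these falls were dim in the PABP1 IP, at scaled signals of 0.106 and 0.141 and of 0.084 and 0.077. The sizes of these 2 falls are therefore uncertain. The rises were led by Mbd3, a subunit of the NuRD complex (1.94, SE 0.23, adjusted p = 0.00197), Tcea3 (1.45, other probe -0.29) and Thap11 (1.20). A probe of Zfx was at least 1.56-fold higher while its other probe was at -2.85. A Smad1 probe past the threshold (adjusted p = 0.0052) was not well above background in input and gave no bound above 1, with its other probe at -0.60.

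The largest rises in GFP IP over PABP1 IP were Zfx (4.57, SE 0.17, adjusted p = 0.00053; other probe 0.06), Rif1 (4.38, other probe 2.31), Pou2f1 (3.69, other probe 2.52), Tfcp2l1, a factor of naive pluripotency (3.38, other probes 2.34, 1.37 and 1.99), and Hcfc1 (3.12, other probes 0.85 and 1.40). The named probes of Rif1, Hcfc1 and Tfcp2l1 were dim in the PABP1 IP (for Tfcp2l1 0.115 and 0.173), so the sizes of their rises are uncertain too. The largest falls were Tcea3 (-1.81, SE 0.19, adjusted p = 0.00109; other probe -1.46), Dppa2 (-1.65), Mbd3 (-1.09), Nr0b1 (DAX1; -0.84) and Mybl2 (-0.75). Pou5f1, at -2.02, lay lower than any of these network probes. As with Klf2 and Sall4, several of these network genes had probes with unlike values, and how many network genes did was not counted or tested.

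The labelled cell type was compared with its defining markers. Of 9 primordial germ cell genes on the array, 8 were well above background on both input arrays (Dazl, Dppa3, Nanos3, Ifitm3, Dnd1, Prdm1, Kit and Tfap2c), and Ddx4, a marker of later germ cells, was not. Dazl counted through probe A_52_P271166 and not through A_51_P246060. As the cells carried Dazl as a transgene, its signal does not by itself mark the cell type. Markers of other cell types were also present in input: 6 of 7 heart and smooth muscle genes, 5 of 6 fibroblast genes, 3 of 6 neural genes, 1 of 7 visceral endoderm genes and 1 of 6 endothelial and blood genes. Trophoblast markers were not well above background on any array. The summed scaled signal of the muscle list was 25.7 and 24.3 in the GFP IP, 110 and 108 in the PABP1 IP, and 55.5 and 57.7 in input. Myl7 alone gave 12.85 and 11.10 in the GFP IP, 82.86 and 77.40 in the PABP1 IP, and 28.93 and 26.26 in input. Of the 10 muscle probes kept, 1 was higher, 3 were lower and 6 did not pass in PABP1 IP against input (40% passed, beside 54.7% of all kept probes). The high muscle sum of the PABP1 IP thus rested mostly on Myl7. The summed scaled signal of the fibroblast list was 31.8 and 56.4 in the GFP IP, 124 and 108 in the PABP1 IP, and 95.4 and 129 in input. That of the germ cell list, which holds the transgene's own gene, was 104 and 117 in the GFP IP, 137 and 135 in the PABP1 IP, and 61.4 and 54.7 in input. Ifitm3 alone gave 15.8 and 13.8 in the GFP IP, 112 and 110 in the PABP1 IP, and 36.0 and 31.2 in input, and the germ cell sums without it, a value chosen after the levels were seen, were 88.5 and 103 in the GFP IP, 24.5 and 25.8 in the PABP1 IP, and 25.4 and 23.5 in input. With Ifitm3 the PABP1 IP thus had the highest germ cell sums, and without it the GFP IP had. Kit was the largest part of the latter, at 37.4 and 55.7 in the GFP IP and 5.66 and 5.99 in input. Dazl probe A_52_P271166 gave 8.73 and 14.4 in the GFP IP and 0.85 and 0.78 in input. Nanos3 went the other way (0.078 and 0.093, beside 0.223 and 0.186). Of 9 germ cell probes kept, 6 were higher, 2 lower and 1 did not pass in GFP IP against input (88.9% passed, beside 53.2% of all kept probes). The neural sum was 16.2 and 14.2 in the GFP IP, 7.17 and 4.66 in the PABP1 IP, and 15.3 and 13.5 in input. Its 2 brightest genes went opposite ways between GFP IP and input. Tubb3 gave 14.16 and 11.17 in the GFP IP and 4.21 and 3.21 in input. Nes gave 1.76 and 2.69 in the GFP IP and 10.45 and 9.80 in input. That of the endothelial and blood list was 7.56 and 8.27 in the GFP IP, 1.23 and 1.07 in the PABP1 IP, and 1.81 and 2.10 in input. Pecam1 probe A_51_P400868 alone gave 7.38 and 8.06 of it in the GFP IP. That probe gave 0.8885 and 0.8323 in the PABP1 IP, and 1.395 and 1.807 in input. Cdh5, Kdr and Hba-x were well above background on no array. The visceral endoderm sum stayed between 0.605 and 1.26 on every array. The muscle and fibroblast sums were thus lowest in the GFP IP, where Nanog, Sox2, Klf5 and Zfp42 were highest. The endothelial and blood sum was highest there too, but it rested almost wholly on that Pecam1 probe. The part of any of these cell types in the member differences was not tested.

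Slide and scaling were compared for the members. Between the 2 arrays of slide 2, GFP IP minus PABP1 IP was -1.73 for Pou5f1, 1.81 for Sox2, 2.84 for Sall4 probe A_51_P349087, 3.08 for Klf5, 1.49 for Klf2 probe A_52_P442031 and 1.84 for Nr5a2. On slide 1 the same differences were -2.32, 1.81, 2.67, 3.17, 1.18 and 2.03, so each of these 6 had the same sign on both slides. Their GFP IP and PABP1 IP arrays did not overlap, which fixes the sign on each slide. The shared sign is therefore no separate check, and the values show only how far the sizes moved. Sall4 probe A_51_P145260 (0.060 on slide 2 and -0.88 on slide 1) and Esrrb probe A_51_P419047 (0.054 and -0.073) differed in sign between slides. The other 6 tested probes did not, among them Esrrb probe A_52_P628212, which was not well above background in either IP. Of the calls in GFP IP against input, those of Nanog, Sox2, Sall4 probe A_51_P349087, Klf5 and Klf2 probe A_52_P442031 were retained under all settings tried, up to 18 for a probe, with differences of 1.35 to 2.26, 2.04 to 2.96, 1.90 to 2.87, 1.43 to 2.39 and -2.58 to -1.69. In PABP1 IP against input the fall of Klf2 probe A_52_P442031 was retained under all settings (-4.28 to -1.39), and in GFP IP against PABP1 IP the rise of Klf5 was (1.49 to 4.09).

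Under spike-in scaling 10 member probes were higher and 1 was lower in PABP1 IP against input, and 1 was higher and 4 were lower in GFP IP against PABP1 IP, with 6 higher and 1 lower in GFP IP against input. The other scalings gave 6 to 8 higher and 1 to 2 lower in GFP IP against input, 1 to 6 higher and 4 to 6 lower in PABP1 IP against input, and 8 to 10 higher and 0 to 1 lower in GFP IP against PABP1 IP. Measured against the median of all probes under each setting, Sox2 stood 2.38 to 2.97 above it in GFP IP against input and 2.11 to 2.57 above it in GFP IP against PABP1 IP. Klf5 stood 3.50 to 4.12 above it and Nr5a2 2.17 to 2.58 above it in GFP IP against PABP1 IP, where Pou5f1 stood at -2.06 to -0.81. The smaller calls were also lost elsewhere: in PABP1 IP against input, Klf2 probe A_51_P144264 did not pass with quantile normalization (0.23, adjusted p = 0.505) or cyclic loess (0.37, adjusted p = 0.283), nor Klf4 (-0.30, adjusted p = 0.198) and Sall4 probe A_51_P349087 (-0.34, adjusted p = 0.118) with normexp background correction. With no filter on dim probes, Nanog did not pass in PABP1 IP against input (adjusted p = 0.0744) or in GFP IP against PABP1 IP (0.103), and Zfp42 probe A_51_P413376 did not pass in GFP IP against PABP1 IP (0.0605). The fall of Nr5a2 in GFP IP against input did not pass with normexp background correction, quantile normalization or cyclic loess (adjusted p of 0.0638 to 0.357), and that of Esrrb probe A_52_P628212 in PABP1 IP against input did not with spike-in scaling (adjusted p = 0.276).

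**Figure D4:**
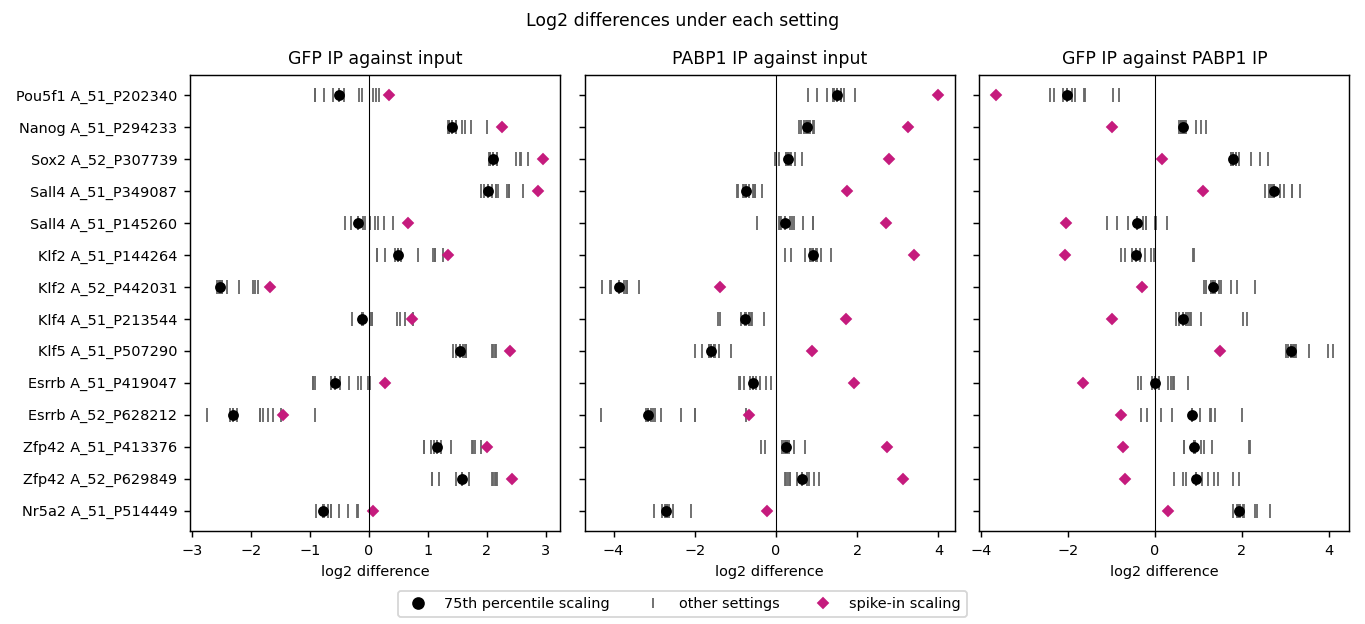
Log2 difference (horizontal axis) of each tested member probe under the 75th percentile scaling (black circle), under spike-in scaling (diamond) and under every other setting tried (grey ticks). Sox2, Nanog, Klf5, Sall4 probe A_51_P349087 and Zfp42 stay right of 0 in GFP IP against input, while spike-in scaling moves all members to the right in PABP1 IP against input and to the left in GFP IP against PABP1 IP.

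The authors' deposited table gives a mean for each group after their own processing, and its values were set beside those of the scanner files. In the authors' deposited table the log2 ratio of GFP IP over input was 3.798 for Sox2, 3.34 for Nanog, 2.67 for the cDNA probe of Sall4 and 2.03 for Klf5, each the same sign as in the scanner files. The RefSeq probe of Sall4 went the other way from the cDNA probe there. It was at -1.37 in GFP IP over input and -0.78 in GFP IP over PABP1 IP, beside -0.19 and -0.41 from the scanner files. The authors' deposited table gave 0.00 for Pou5f1 in that comparison, 1.12 in PABP1 IP over input and -1.11 in GFP IP over PABP1 IP. The sign differed between sources in GFP IP against input for Esrrb (2.12 in the authors' deposited table and -0.58 from the scanner files), Nr5a2 (0.99 and -0.77) and Klf4 (0.88 and -0.11). In PABP1 IP against input it differed for Esrrb probe A_51_P419047 (1.87 and -0.57) and for the RefSeq probe of Sall4 (-0.59 and 0.22). The dim Esrrb probe A_52_P628212 was close to 0 in the authors' deposited table, at -0.17 in GFP IP over input and -0.06 in PABP1 IP over input. Its fitted values from the scanner files were -2.31 and -3.15, so its fall there was not seen in the authors' deposited table. In GFP IP over PABP1 IP the authors' deposited table gave 3.67 for Klf5, 3.35 for the cDNA probe of Sall4, 2.59 for Sox2, 2.44 for Nr5a2, 1.90 for Klf4 and 1.85 for Nanog. Its rows for Klf2 and Zfp42 share an accession and could not be matched to a probe. The 2 Klf2 rows were at 1.62 and -0.26 in GFP IP over input and at 1.24 and -0.98 in PABP1 IP over input. The 2 probes were also opposite in sign in these comparisons in the scanner files, though the rise of 0.49 in GFP IP against input did not pass. In GFP IP over PABP1 IP the rows were at 0.37 and 0.72, with the same sign, where the probes were at -0.44 and 1.33.

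**Figure D5:**
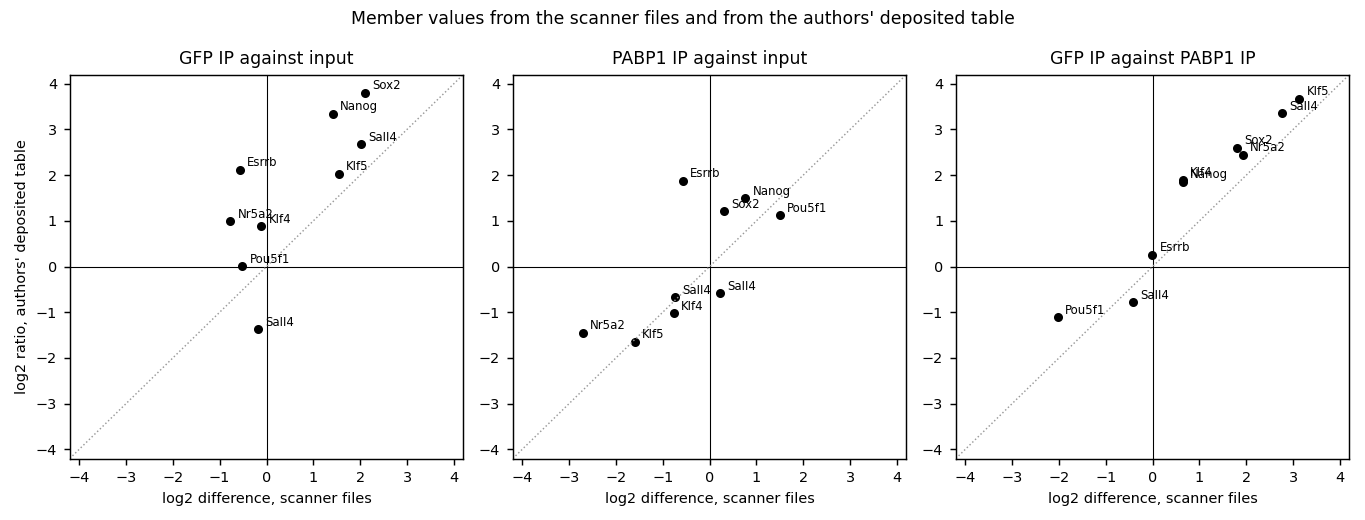
Log2 ratio of group means in the authors' deposited table (vertical axis) against the log2 difference from the scanner files (horizontal axis) for the 9 member probes matched by accession and well above background, with the dotted line marking equality. In GFP IP against PABP1 IP all but Esrrb, which is near 0 on both axes, have the same sign on both axes, and in GFP IP against input Esrrb, Nr5a2 and Klf4 lie above 0 in the authors' table and below 0 in the scanner files.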

How the data were processed

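Single-colour Agilent arrays of 2 GFP IP, 2 PABP1 IP and 2 input samples were analysed. Spot intensity and the background-subtracted processed signal came from Agilent Feature Extraction 9.1.3.1, per the file headers. The authors' deposited table holds group mean signal, standard errors and a quality score; no test used it, its standard errors or its score, and its own scaling was not rebuilt. Its group means correlated with scanner means at 0.819 to 0.914 across 11067 probes, and its differences between groups with scanner differences at 0.624 for GFP IP over input, 0.53 for PABP1 IP over input and 0.85 between the IPs. No deposited file gives counts or depth.

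Log2 signals of non-control spots that were no outliers were averaged per probe and centred on the array's 75th percentile. A probe was kept (21061 were) if both arrays of any group read it well above background. Probes were named by accession (22951) or by a shared name (4521) through RefSeq, assembly GRCm38.p6. limma 3.58.1 in R 4.3.3 (lmFit, eBayes) fitted all 6 arrays with group alone (3 residual degrees of freedom), two-sided, with Benjamini-Hochberg adjustment over all kept probes and a threshold of 0.05. For slide 1 alone, each IP has 1 array, assumed to vary like the input pair; the same holds for a group left with 1 array. Within-array ratios of 2 kept probes of a gene (at most 6 kept probes a gene) were fitted likewise. The fit was tested on simulated data. Alternatives were normexp background (offset 50), median, quantile, cyclic loess and spike-in scaling, other probe filters, 1 probe or the mean per gene, a minimum log2 difference of 0.5, slide or replicate blocks and left-out arrays. The slide 2 values and the authors' table were added after seeing the data.

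Named were all members with every probe, up to 5 network genes per direction and comparison (1 of them is not reported here), and the 3 nearest profiles of Pou5f1, Nanog and Sox2; Cct8 was chosen after its values were seen. Members and lists were chosen with earlier results of these data known. Replicate numbers mark no shared culture in the labels. Deviations of same-numbered arrays correlated at -0.62 (GFP IP and PABP1 IP), -0.02 (GFP IP and input) and 0.15 (PABP1 IP and input). Same-numbered GFP IP and PABP1 IP arrays lay on different slides, so the first value cannot tell a shared culture from a slide difference.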

Additional observations from a re-analysis of the deposited data

How the results depend on the processing

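The 2 arrays per group limit the precision, the scaling moves signs and calls, and probes near background (Esrrb A_52_P628212, Klf5 A_52_P54463) give bounds or no value. The calls among 14 member probes moved by more than 1.5 times in these cases. In PABP1 IP against input 5 passed at a minimum log2 difference of 0.5, and in GFP IP against PABP1 IP 5 passed with spike-in scaling (1 higher and 4 lower). Leaving out 1 array gave 5 to 9, 3 to 9 and 7 to 9 member calls in the comparisons of GFP IP with input, of PABP1 IP with input and of the 2 IPs, and 21 to 36, 35 to 50 and 40 to 46 calls among the 76 network probes. Network calls in GFP IP against input, 35 as reported, were 22 with spike-in scaling, 22 with the brightest probe of a gene, 21 at the minimum difference and 21 with gene means. They were 21 without Input replicate 1 and 22 without Input replicate 2. In PABP1 IP against input they were 30 (brightest) and 29 (gene means) against 49 as reported, and in GFP IP against PABP1 IP 27 (spike-in), 30 (brightest), 33 (minimum difference) and 30 (gene means) against 51. Choosing 1 value a gene leaves 44 values to test in place of 76. Other scalings moved the split of network calls in GFP IP against input from 20 higher and 15 lower to 28 and 8 (median) and 29 and 11 (cyclic loess). Over all kept probes that split, 4360 higher and 6834 lower as reported, was 5828 and 2230 with the median of all probes. In GFP IP against PABP1 IP it was 5146 and 8078 as reported and 7019 and 5312 with cyclic loess. With slide as a block, 11, 10 and 10 member probes passed in the 3 comparisons, and 40, 57 and 61 network probes. With the replicate number as a block, 8, 7 and 8 member probes passed in the 3 comparisons, 28, 45 and 45 network probes, and 5 of 12 probe pairs. The labels tie no samples through these numbers. Probe pair calls were 4 to 6 when 1 array was left out. The causes of these changes were not tested. Of the values of single member probes under alternatives, 582 kept their direction and side of the threshold, 72 no longer passed, 38 newly passed and 49 changed sign. With normexp background correction, the sign changed in GFP IP against input Pou5f1 A_51_P202340 at 0.11, Sall4 A_51_P145260 at 0.15, Klf4 A_51_P213544 at 0.53 and in GFP IP against PABP1 IP Esrrb A_51_P419047 at 0.10, Esrrb A_52_P628212 at -0.18. With the median of all probes as the scale, the sign changed in GFP IP against input Pou5f1 A_51_P202340 at 0.074, Sall4 A_51_P145260 at 0.40, Klf4 A_51_P213544 at 0.48, Esrrb A_51_P419047 at 0.017 and in GFP IP against PABP1 IP Sall4 A_51_P145260 at 0.0037, Esrrb A_51_P419047 at 0.40. With quantile normalization, the sign changed in GFP IP against input Klf4 A_51_P213544 at 0.60 and in PABP1 IP against input Zfp42 A_51_P413376 at -0.38 and in GFP IP against PABP1 IP Klf2 A_51_P144264 at 0.89, Esrrb A_51_P419047 at 0.45. With cyclic loess, the sign changed in GFP IP against input Pou5f1 A_51_P202340 at 0.17, Sall4 A_51_P145260 at 0.093, Klf4 A_51_P213544 at 0.74 and in PABP1 IP against input Sox2 A_52_P307739 at -0.038, Zfp42 A_51_P413376 at -0.27 and in GFP IP against PABP1 IP Sall4 A_51_P145260 at 0.018, Klf2 A_51_P144264 at 0.88, Esrrb A_51_P419047 at 0.76. With spike-in scaling, the sign changed in GFP IP against input Pou5f1 A_51_P202340 at 0.33, Sall4 A_51_P145260 at 0.66, Klf4 A_51_P213544 at 0.73, Esrrb A_51_P419047 at 0.27, Nr5a2 A_51_P514449 at 0.074 and in PABP1 IP against input Sall4 A_51_P349087 at 1.75, Klf4 A_51_P213544 at 1.72, Klf5 A_51_P507290 at 0.89, Esrrb A_51_P419047 at 1.92 and in GFP IP against PABP1 IP Nanog A_51_P294233 at -0.99, Klf2 A_52_P442031 at -0.30, Klf4 A_51_P213544 at -0.99, Esrrb A_52_P628212 at -0.79, Zfp42 A_51_P413376 at -0.73, Zfp42 A_52_P629849 at -0.69. With slide as a block, the sign changed in GFP IP against input Sall4 A_51_P145260 at 0.26, Klf4 A_51_P213544 at 0.022. With slide 1 alone, the sign changed in GFP IP against input Sall4 A_51_P145260 at 0.023, Klf4 A_51_P213544 at 0.055. With 1 array left out, Sall4 A_51_P145260 ranged from -0.40 to 0.023 in GFP IP against input, -0.46 to 0.91 in PABP1 IP against input and -1.09 to 0.27 in GFP IP against PABP1 IP. Klf4 A_51_P213544 ranged from -0.28 to 0.055 in GFP IP against input, and in GFP IP against PABP1 IP Esrrb A_51_P419047 ranged from -0.39 to 0.37 and Esrrb A_52_P628212 from -0.31 to 1.996.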
